A study of Rattus norvegicus with 10 samples.

Results

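The neurotrophin genes Bdnf and Ntf3 and the receptor genes Ntrk2, Ntrk3 and Ngfr were followed in the hippocampus of weaning-stage rats. The 5 genes were chosen by symbol, and every probe set annotated with exactly 1 of these symbols was taken. This gave 10 probe sets out of 20826 with a single symbol, which cover 14217 genes in all. Bdnf had 2 probe sets, Ntrk2 had 5, and Ntf3, Ntrk3 and Ngfr had 1 each. Rats of the C-group received solid chow and rats of the P-group received the same kind of feed as a powder, each for 8 days. All were male Wistar rats that entered the study on postnatal day 21, had eaten powdered feed for 2 days before the groups were formed, and are labeled as 4 weeks old. Each group had 5 arrays, numbered C1 to C5 and P1 to P5, and the study's methods give 5 rats for this experiment. Hippocampal regions were dissected by hand, so the values are averages over the cell types of the dissected tissue. Fewer cells of a type cannot be told apart from less mRNA per cell.

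Neurotrophins are secreted proteins that keep neurons alive and shape their dendrites and synapses. BDNF acts on the receptor tyrosine kinase TrkB (encoded by Ntrk2) and NT-3 (encoded by Ntf3) mainly on TrkC (encoded by Ntrk3), whereas p75 (encoded by Ngfr) binds all mature neurotrophins and, with higher affinity, their uncleaved precursors. In the hippocampus, BDNF and TrkB are well known for their part in long-term potentiation. In adult rat hippocampus, Ntf3 mRNA is known to be concentrated in granule cells of the dentate gyrus. Ntrk2 gives rise to full-length receptors in neurons and to truncated forms without the kinase, which are abundant in astrocytes.

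Bdnf is transcribed from several start sites, each with its own promoter, and an activity-dependent one responds to CREB, the factor that binds the cyclic AMP response element. The RefSeq promoter table (GRCr8) held 6 Bdnf windows of 300 bases, reaching from 250 bases before a start to 50 after it, and 3 Ntf3 windows. The core of that element (TGACG, searched on both strands) was found in 1 of the 6 Bdnf windows and in 0 of the 3 Ntf3 windows, against 21.2% of all 33469 windows. The complete palindrome (TGACGTCA) was in 0 of these 9 windows and in 1.83% of all windows, and the E-box CACGTG, which the factors USF1 and USF2 bind, was in 1 Bdnf window and in 6.42% of all. The 250 bases before the start in the Bdnf window with the core are shown because this is the kind of element through which neuronal activity is known to act on Bdnf. They lie at chr3:116637608-116637857 on the plus strand, and the capitals mark the core as it reads on that strand, with its first base 35 bases before the start.
Bdnf, window with the core: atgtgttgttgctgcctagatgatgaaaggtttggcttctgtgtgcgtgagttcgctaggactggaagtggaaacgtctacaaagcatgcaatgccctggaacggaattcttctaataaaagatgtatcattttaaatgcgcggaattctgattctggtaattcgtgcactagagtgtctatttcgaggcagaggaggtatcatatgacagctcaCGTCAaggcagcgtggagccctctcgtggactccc
The files do not say which start site a Bdnf probe set reads, so a value below is that of whichever transcripts its probes reach.

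Of the 10 probe sets, 5 varied between rats, 1 of Bdnf, 1 of Ntf3 and 3 of Ntrk2. The authors' summary of the probes (qFARMS, a factor model) leaves a probe set almost constant when its probes share no variation, and a standard deviation (SD) above 0.01 log2 units over the 10 arrays is used here to mark those that vary. On the whole array, 9.36% of the 31042 probe sets passed this limit. The other 5 member probe sets, 1 of Bdnf, 2 of Ntrk2 and those of Ntrk3 and Ngfr, had SDs of at most 0.00037 and differed between the groups by at most 0.00018. Ntrk3 was thus 8.95 in both groups and Ngfr 5.94 in both. Such flat values say nothing about how the rats differed, so diet could not be assessed for Ntrk3 and Ngfr.

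The mean of Bdnf lay 0.13 log2 units higher in the C-group, a difference within the spread of the rats, and the groups overlapped. Its variable probe set (1368677_at) was 9.13, 8.86, 8.90, 8.94 and 8.70 in C1 to C5, and 8.89, 8.71, 8.66, 8.87 and 8.75 in P1 to P5. C1 was the highest of the 10 rats and P3 the lowest, and C5 lay among the lower P-group values. The C-group rat was the higher one in 19 of the 25 possible pairings of 1 rat from each group. The means were 8.91 ± 0.15 in the C-group and 8.78 ± 0.10 in the P-group (SD, n = 5 each), a difference of 0.13 log2 units (standard error 0.08, 95% interval from -0.05 to 0.31). This is a 1.10-fold difference, with an interval from 0.968-fold to 1.24-fold. The difference was not larger than the spread between rats (exact permutation test, two-sided, p = 0.135, where the smallest p this design allows is 0.00794, and adjusted p = 0.927 from limma over all probe sets). Such p-values measure the spread between these arrays only. Rank products, the method that the study used, gave a false discovery rate (FDR) of 0.0639 for a higher value in the C-group, above the threshold of 0.05. This FDR depended on the probe sets ranked, and it was 0.154 among the brighter ones and 1.07 among the 2904 variable ones. Without P1 or without C5 the FDR was 0.0385 or 0.0456, and without C1 the difference was 0.08 with an FDR of 0.192. The second Bdnf probe set (1368678_at) was constant at 6.84.

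Ntf3 varied most among the members, and its group means lay within 0.02 log2 units of each other, far inside its error. Its values (1387267_at) were 7.15, 7.72, 8.17, 8.10 and 8.06 in C1 to C5, and 7.72, 7.74, 8.04, 7.93 and 7.89 in P1 to P5. The C-group held both the 3 highest values and the 2 lowest, and the P-group lay between them. The means were 7.84 ± 0.42 in the C-group and 7.86 ± 0.13 in the P-group (SD, n = 5 each), and the difference was -0.02 with a standard error of 0.19 and a 95% interval from -0.46 to 0.42 (exact permutation p = 0.944, two-sided, and adjusted p = 0.988 from limma). The interval still holds differences of up to 0.4 log2 units in either direction. A single rat set the sign, since without C1 the difference was 0.15, without C2 it was 0.0085 and without P3 it was 0.02. Although its mean was lower, the C-group rat was the higher one in 15 of the 25 pairings, and rank products gave an FDR of 0.107 for a higher and 0.983 for a lower value in the C-group.

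At Ntrk2, the gene of the BDNF receptor, the 3 variable probe sets all lay a little higher in the C-group, and none of the differences passed a test. The first (1370652_at) was 7.24, 7.17, 7.17, 7.10 and 7.17 in C1 to C5, and 7.12, 6.74, 7.29, 7.11 and 6.95 in P1 to P5. Here the C-group was tight and the P-group wide, with both the highest rat, P3, and the lowest, P2. The means were 7.17 ± 0.05 in the C-group and 7.04 ± 0.21 in the P-group (SD, n = 5 each), a difference of 0.13 (standard error 0.09, 95% interval from -0.08 to 0.34, exact permutation p = 0.222). Its rank products FDR was 0.0909, and it was 0.0225 without P3, when the difference was 0.19. Without P2 the difference was 0.05.

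The second Ntrk2 probe set (1370687_a_at) was 9.24, 9.09, 9.04, 9.03 and 9.08 in C1 to C5, and 9.06, 8.99, 9.11, 9.06 and 9.002 in P1 to P5, a difference of 0.05 (standard error 0.04, 95% interval from -0.04 to 0.15, exact permutation p = 0.286). The third (1397246_at) was 10.82, 10.57, 10.39, 10.48 and 10.49 in C1 to C5, and 10.49, 10.41, 10.54, 10.43 and 10.40 in P1 to P5, a difference of 0.10 (standard error 0.08, 95% interval from -0.07 to 0.27, exact permutation p = 0.246). In both, C1 stood well above every other rat, and the remaining C-group values lay within or next to the range of the P-group. Without C1 the differences were 0.02 and 0.03. Their rank products FDRs were 0.324 and 0.221. The other 2 Ntrk2 probe sets (1368972_at and 1383135_at) were constant at 9.68 and 10.57. Which transcript forms, full-length or truncated, each Ntrk2 probe set reads is not given in the files used here.

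**Figure D1:**
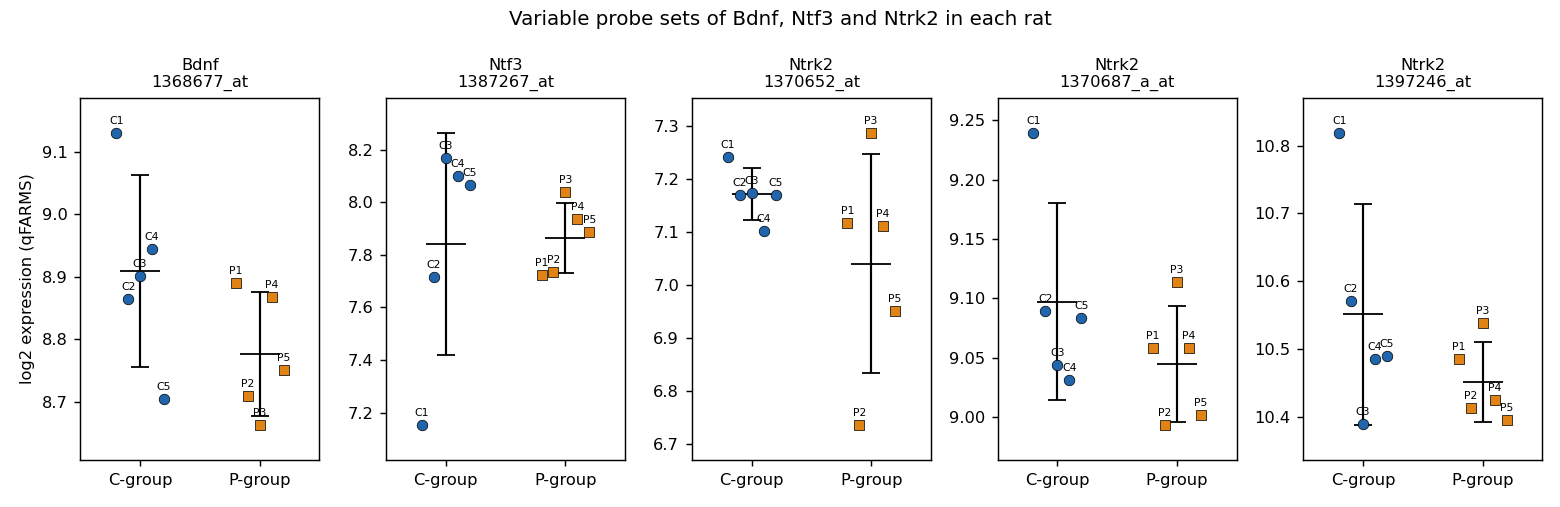
Log2 expression of the 5 variable probe sets of Bdnf, Ntf3 and Ntrk2, one panel each, with the C-group as blue circles on the left and the P-group as orange squares on the right. Each point is 1 rat, and the horizontal bar and whiskers are the group mean and SD. The groups overlap in every panel, and C1 is the highest rat for Bdnf and for the last 2 Ntrk2 probe sets and the lowest for Ntf3.

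Over all members, 0 of the 10 probe sets were called by rank products, which called 2.41% of the 31042 probe sets in either direction (2.0% higher and 0.416% lower in the C-group). Among the 2904 variable probe sets, rank products called 25.8% (21.3% higher and 4.44% lower), and 0 of the 5 variable member probe sets. limma called 0 of the 10 at an adjusted p under 0.05, as it called 0% of all probe sets, and 0 of the 10 had an unadjusted p under 0.05, against 2.95% of all and 1.14% of the variable ones. The groups overlapped in all 5 variable member probe sets, and they did not overlap in 0.207% of the variable probe sets. The 5 variable members had a median difference of 0.10, of which 4 were positive, and all variable probe sets together had a median of 0.07, of which 68.3% were positive. The direction of most variable member probe sets was thus that of most variable probe sets. Most of the positive ones among the members were those of Ntrk2, which may read the same transcripts in part.

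**Figure D2:**
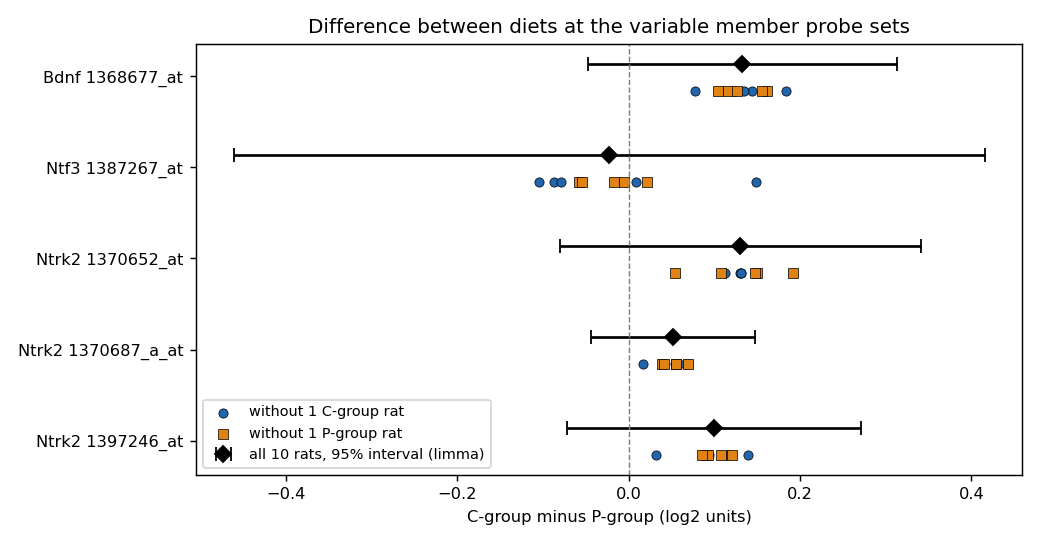
Differences between C-group and P-group (log2 units, horizontal axis) at the 5 variable member probe sets. Black diamonds with whiskers are the difference over all 10 rats and its 95% interval from limma, blue circles and orange squares the difference after leaving out 1 rat of the C-group or of the P-group. Every interval includes 0, and the point farthest right for Ntf3 (0.15) is the one without C1.

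Beyond these genes, 461 of the 620 probe sets called higher in the C-group had their highest value in C1. They were selected for high C-group values, so this count cannot by itself set C1 apart. When C1 was left out, 61 probe sets were called higher. Correlation between arrays over all probe sets ran from 0.987 to 0.9996, and array medians from 7.0 to 7.02. Of 10 markers of hippocampal excitatory neurons, 9 had a probe set with a single symbol, among them those of Prox1 (dentate granule cells), at 9.54, Fibcd1 (CA1), at 8.09, and Neurod6 (pyramidal cells), at 10.52 on average. Neurod6 was called lower in the C-group. Zbtb20, a transcription factor gene of hippocampal neurons, was called higher at 3 probe sets, by 0.24, 0.30 and 0.16. The brightest Zbtb20 probe set, at 10.76 on average, also varied, differed by -0.02 and was not called. Of the list's 12 variable probe sets, 7 lay higher in the C-group. The mean of the 10 variable choroid plexus markers ran from 6.34 to 9.09 in the C-group and from 6.17 to 8.61 in the P-group, and 10 of 12 measured genes of this list were called higher in the C-group. Of the meningeal markers, 5 of 9 measured genes were called higher, and their mean ran from 8.96 to 9.43 in the C-group and from 8.59 to 9.44 in the P-group. The astrocyte mean ran from 9.73 to 10.13 in the C-group and from 9.53 to 10.003 in the P-group, with 3 of 8 genes called higher. These were Aqp4, Gja1 and Slc1a3, each at a dimmer probe set, and their brightest ones were constant at 11.71, 12.27 and 11.46. Gfap, the remaining one of the 4 variable genes in this list, went the other way by -0.15 and was not called. Pineal markers averaged 7.87 in P2 and 5.78 to 5.85 in the other 9 rats. Against these marker calls, rank products called 2.0% of all probe sets and 21.3% of the variable ones higher in the C-group. The marker calls were not followed with single rats left out. The part of these cells in the differences above was not tested.

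Relations among the members were computed over the 10 rats of both groups. With those of the marker means and of Prox1 they made up the 55 over which p was adjusted. Prox1 was picked after its values were seen, and its relation with Ntf3 had the lowest p. This lowered the adjusted p of the next strongest relations, which were not adjusted again without Prox1. The second and the third Ntrk2 probe sets varied together over the 10 rats (Pearson's r = 0.940, permutation p = 0.0008, adjusted p = 0.022, Spearman's rho = 0.879, permutation p = 0.00172, adjusted p = 0.0315, over 55 relations computed), and r was 0.764 without C1 and P2 and 0.929 within groups. The first Ntrk2 probe set followed the second (rho = 0.855, adjusted p = 0.0396, r = 0.702, adjusted p = 0.182 in the same permutation test). Probe sets of 1 gene may read the same transcripts in part, so this is not counted as an independent observation. Bdnf and its receptor gene did not rank the rats alike, with rho of 0.03, 0.03 and 0.0061 between Bdnf and the 3 Ntrk2 probe sets. The corresponding r of 0.333, 0.560 and 0.614 (adjusted permutation p = 0.554, 0.225 and 0.201) were 0.564, 0.260 and 0.218 without C1 and P3, so the larger 2 of them rested on those rats.

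Ntf3 ran opposite to the third Ntrk2 probe set (r = -0.782, permutation p = 0.0306, adjusted p = 0.153, rho = -0.527, adjusted p = 0.325), and without C1 and C3 r was 0.05, so the relation rested on those rats. It ran along with the mean of the 7 variable hippocampal neuron markers (rho = 0.891, adjusted permutation p = 0.0305, r = 0.771, adjusted p = 0.0708, and r = 0.803 without C1 and C2). Prox1, which encodes a transcription factor that defines dentate granule cells, belongs to that list and was singled out after its values were seen. Its values were 9.13, 9.38, 9.73, 9.73 and 9.67 in C1 to C5, and 9.37, 9.50, 9.63, 9.63 and 9.62 in P1 to P5, so that C1 was lowest and C3 highest, as for Ntf3. Over the 10 rats r was 0.966 and rho 0.976, r was 0.931 without C1 and P1, and it was 0.966 within groups. No p is given, since the gene was picked for this pattern, and the 5 genes most like Ntf3 on the array, named below, had r from 0.971 to 0.982. The Prox1 relations are among the 55 over which p was adjusted, which lowered the adjusted permutation p of 0.0305 above. Prox1 itself differed between the groups by -0.02 (standard error 0.12).

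**Figure D3:**
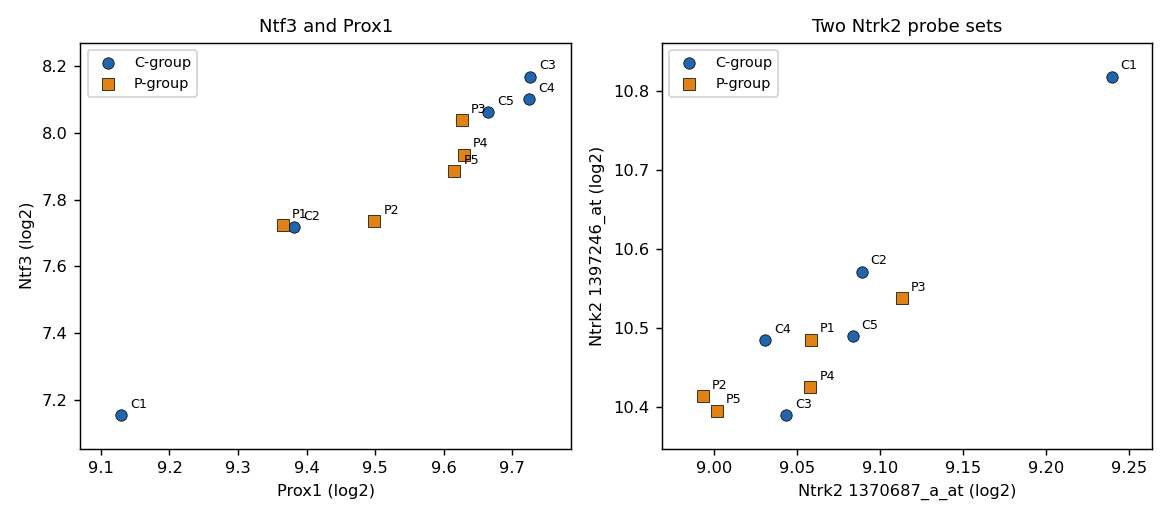
Left, Ntf3 against Prox1, and right, 2 of the Ntrk2 probe sets against each other, all in log2 units, with 1 point for each rat (blue circles, C-group, and orange squares, P-group). Ntf3 and Prox1 rise together in both groups (r = 0.966), and the Ntrk2 probe sets rise together with C1 far from the others (r = 0.940, and 0.764 without C1 and P2).

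Choroid plexus markers ran along with the second and the third Ntrk2 probe sets without passing the adjusted test (r = 0.697 and 0.669, each with an adjusted permutation p = 0.094, rho = 0.588 and 0.564, each with an adjusted p = 0.325, and r = 0.547 and 0.573 without C1 and C5), and so did astrocyte markers with the third (r = 0.747, adjusted permutation p = 0.094, rho = 0.479, adjusted p = 0.377, and r = 0.550 without C1 and P1). With the choroid plexus mean, r was -0.03 for Bdnf and -0.38 for Ntf3 (adjusted permutation p = 0.991 and 0.515). With the astrocyte mean, r was -0.69 for Ntf3 (adjusted permutation p = 0.153) and -0.14 without C1 and P1. Meningeal markers ran the same way with the third (rho = 0.758, r = 0.629, adjusted permutation p = 0.158 and 0.182, and r = 0.631 without P3 and P5). Oligodendrocyte markers ran opposite to the second and the third (rho = -0.733 each, adjusted permutation p = 0.158 each, r = -0.55 and -0.52, adjusted p = 0.225 and 0.264, and r = -0.84 and -0.88 without C4 and P1). Pineal markers, high in P2 alone, had r = -0.826 with the first Ntrk2 probe set (adjusted permutation p = 0.153, rho = -0.212), and r was 0.381 without P2 and P3. None of these relations passed an adjusted p of 0.05, and the part of these cells in the Ntrk2 values was not tested. None of the relations of Bdnf with a marker mean passed an adjusted p of 0.05, and the largest r were 0.679 with the astrocyte mean (adjusted permutation p = 0.153, and 0.306 without C1 and P1) and -0.622 with the thalamus mean (adjusted permutation p = 0.184, and -0.345 without P2 and P3).

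**Figure D4:**
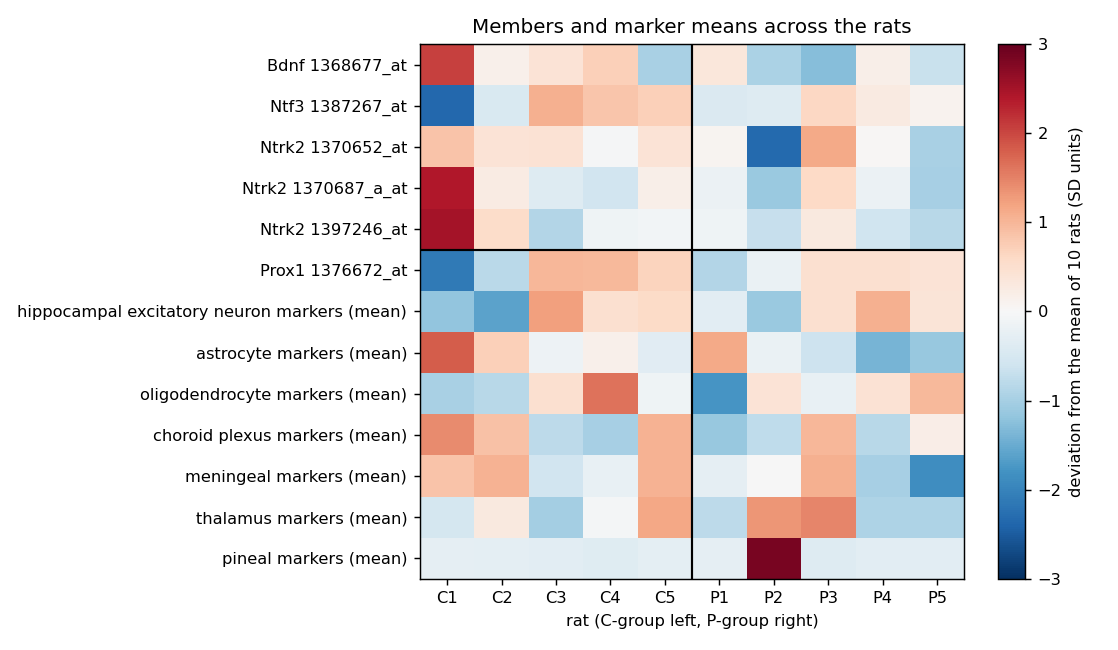
Deviation of each rat from the mean of the 10 rats, in SD units (red above, blue below), for the 5 variable member probe sets, Prox1 and the means of 7 marker lists. Rats of the C-group are left and rats of the P-group right of the vertical line. C1 is dark red for Bdnf and 2 Ntrk2 probe sets and dark blue for Ntf3 and Prox1, and P2 alone is red for the pineal markers.

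The genes whose variable probe sets were most like each member were searched among 1788 other genes. The 5 with the highest Pearson's r over the 10 arrays are given as a description. These r were not recomputed without the most extreme rats. For Bdnf they were Pdpk1, Nrip3, Rab3a, Hacd2 and Cpd, with r from 0.895 to 0.948. Pdpk1 encodes the kinase that activates Akt downstream of Trk receptors, and Rab3a a small GTPase of synaptic vesicles. For Ntf3 they were Sertad4, Dgkh, Ptpn3, Ppl and Sema5a, with r from 0.971 to 0.982. For the first Ntrk2 probe set they were Dock9, Mical3, Snhg11, Ube2b and Abcc5 (0.890 to 0.940), for the second Ralgapa1, Ptprs, Ssr3, Tmed2 and Tomm7 (0.940 to 0.950), and for the third Igf1r, Cgnl1, Cdh13, Atp2a2 and Trak1 (0.956 to 0.976). No gene was shared between the 5 sets. Of these 25 genes, Nrip3, Rab3a, Cpd, Ppl, Dock9, Ralgapa1, Atp2a2 and Trak1 were called higher in the C-group by rank products, although the mean of Ppl was lower there by 0.05 log2 units. Over all variable probe sets, rank products called 21.3% higher. The genes were picked for likeness to the members over the arrays of both groups, so their calls are no separate result.

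Around the members, 9 lists of genes of neurotrophin biology were examined. They held 120 genes, of which 101 had a probe set with a single symbol and 22 a variable one, with 32 variable probe sets in all. Rank products called 1 gene higher and 4 lower in the C-group, and limma called 0, with 1 of the 32 at an unadjusted p under 0.05. Over all variable probe sets rank products called 21.3% higher and 4.44% lower. When only variable probe sets were ranked, all 5 of these gene calls were lost, with FDRs from 0.761 to 1.21. In that ranking, 9 of the 2904 probe sets were called higher and 0 lower, against 620 and 129 over the whole array. The loss was thus not particular to these genes. Lower calls over the whole array also fell, from 129 to 21, 49, 10 and 29 without P2, P3, P4 and P5. The median difference of the 32 was 0.00, against 0.07 for all variable probe sets.

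Of the remaining ligands and Trk receptors, Ntf4, which encodes NT-4, another ligand of TrkB, was constant at 6.23 in both groups. Sort1, the gene of sortilin, which binds neurotrophin precursors together with p75, was constant at both of its probe sets, at 10.26 and 7.46. Of the 20 Trk adaptor genes, which link the receptors to Ras, phospholipase C and PI3K, all were measured and 0 had a variable probe set.

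Among the sortilin family and p75 partners, 12 of 13 genes were measured, 4 varied, and 2 were called lower in the C-group. Bex3 encodes a protein that binds the cytoplasmic part of p75. It was 8.80, 8.56, 8.79, 8.47 and 8.48 in C1 to C5, and 8.92, 8.99, 8.61, 8.86 and 8.82 in P1 to P5. Most P-group rats lay above the C-group, with P3 among the C-group values. The difference was -0.22 with a standard error of 0.09 (rank products FDR = 0.0040, adjusted p = 0.927 from limma), and without P4 the FDR was 0.0600. Sorl1, a sorting receptor of the same family as sortilin, was called lower at 1 of its 5 variable probe sets (1394786_at, a difference of -0.42 and a standard error of 0.40, FDR = 0.0436). That call came with C1 at 9.27, against 11.05 to 11.53 in the other C-group rats and 11.20 to 11.36 in the P-group, and without C1 the difference was -0.01. It was also lost without C2 or without any single P-group rat, with differences from -0.41 to -0.46. At its other 4 variable probe sets, Sorl1 differed by at most 0.01 in size. Lingo1, a co-receptor of p75, and Traf6, which binds p75, differed by 0.15 and 0.09 (standard errors 0.13 and 0.11) and were not called. Without C1 they differed by 0.08 and 0.03.

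Genes that cleave and release neurotrophin precursors were mostly constant. Of 16 measured, Hap1, which takes part in the transport of BDNF precursor, and Serpini1, the inhibitor neuroserpin of tissue plasminogen activator, varied, with differences of 0.01 and 0.10 (standard errors 0.27 and 0.12), and neither was called. Without C1 they differed by -0.19 and 0.03. Among the genes of signaling below the receptors, Rap1a was the variable one of 9 measured in the Ras-MAPK branch, with a difference of 0.0034 (standard error 0.02). In the PI3K-Akt branch, Pdpk1, Gsk3b and Pik3ca varied among 8 measured and differed by 0.12, 0.08 and 0.15 (standard errors 0.08, 0.12 and 0.11). None of them was called, and Pik3ca came nearest (FDR = 0.0646). C1 was the highest C-group rat for all 3, and without it they differed by 0.06, 0.0032 and 0.08.

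Of 10 measured regulators of Bdnf transcription, 3 varied, and 1 was called in each direction. Usf1, which encodes a factor that binds E-boxes, was called lower in the C-group, with a difference of -0.25 (standard error 0.17, FDR = 0.0347). C1 was lowest at 7.63, against 8.27 to 8.50 in the other C-group rats and 8.26 to 8.63 in the P-group, and without C1 the difference was -0.09 and the FDR 0.0841. The call was also lost without C2, P2, P3, P4 or P5, with FDRs from 0.0555 to 0.208. Mef2c was called higher at 1 probe set (1373410_at, a difference of 0.27 and a standard error of 0.24, FDR = 0.0158) and differed by 0.05 at the other (1372332_at, standard error 0.16). That call was lost without any of C1, C2, C4, P4 and P5, and the difference was 0.16 without C2 or P4 and 0.12 without P5. Without C1 Mef2c differed by 0.24 at the called probe set and by 0.17 at the other. Bhlhe40 differed by -0.07 (standard error 0.15), and by -0.13 without C1.

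Genes that respond to neurotrophins and neuronal activity were mostly lower in mean in the C-group, and the size of the differences rested largely on C1. Of 13 measured, 8 varied, and 9 of their 13 variable probe sets were lower in the C-group, with a median difference of -0.10. C1 was the lowest of the 10 rats at 8 of the 13. Without it the median was -0.02, and 10 of the 13 were still or newly lower in the C-group. The immediate early genes Arc, Egr1, Fos and Nr4a1 differed by -0.16, -0.15, -0.04 and -0.08 (standard errors 0.17, 0.16, 0.19 and 0.12), and none was called. Without C1 they differed by -0.04, -0.03, -0.09 and 0.02. Dusp6, which dephosphorylates ERK, differed by -0.10 and -0.23 (standard errors 0.10 and 0.23) and Npy, which encodes the peptide of a class of interneurons, by -0.24 (standard error 0.24). Without C1 these were -0.05 and -0.02 for Dusp6 and -0.0091 for Npy. Rgs2 was higher in the C-group at both of its variable probe sets, by 0.07 and 0.0029 (standard errors 0.12 and 0.0095), and was not called. Its differences were -0.05 and -0.0040 without C1. Homer1, a scaffold of glutamate receptors with a short activity-induced form, was called lower at 1 of its 4 variable probe sets (1370997_at, a difference of -0.23 and a standard error of 0.16, FDR = 0.0241), with 6.62 in C1 as the lowest value, and without C1 it differed by -0.11. That call was lost without C2, P2, P3, P4 or P5, with FDRs from 0.0610 to 0.141. Its other 3 differed by 0.05, -0.16 and 0.01, and by 0.02, 0.02 and -0.0090 without C1. Of the other neurotrophic factors and receptors, 12 were measured, and Gfra2, a receptor of the GDNF family, was the variable one, with a difference of 0.05 (standard error 0.12), and 0.02 without C1.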

How the data were processed

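The authors hybridized biotin-labeled cRNA from 100 ng of total RNA of each hippocampus to Affymetrix rat genome arrays and normalized and summarized them by qFARMS in R 2.7.2, and the deposited values are taken as log2 expression. Scanner files were not used here. Each probe set took its symbol from GEO's annotation of the platform, for which no genome build is named. Of 31099 rows, 57 control rows were dropped. There were 0 columns of other samples.

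Rank products (the study's method, without pairing, from 25 differences, FDR from 100 permutations within arrays, threshold 0.05 in each direction) ran in Python 3.11.15 with numpy 2.4.6, pandas 2.3.3 and scipy 1.17.1. Its FDR varies with the random draw and may exceed 1. limma 3.58.1 in R 4.3.3 (lmFit, eBayes, Benjamini-Hochberg over all 31042 probe sets) gave standard errors, 95% intervals and adjusted p-values. Both were tested on simulated data. Differences are C-group minus P-group. The exact permutation test ran over 252 splits of the rats. Correlations over rats used 100000 permutations, two-sided, with Benjamini-Hochberg over all 55, those of Prox1 included. Arrays give no read depth, and their number limits the precision.

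The genes named are all member probe sets, Ntf4 and Sort1, the called genes of each list and the 5 nearest genes, besides variable genes of the lists and marker genes given for context. A list's marker mean uses the brightest variable probe set of each gene. The members and lists were chosen with earlier results of these data known. Alternatives changed the normalization, the filter, the pairing, the variance model, the random draw, the probe set and the arrays used.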

Additional observations from a re-analysis of the deposited data

Results flagged for a closer look

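The 5 variable member probe sets and the 5 pathway probe sets called by rank products were screened for a rat far from the others of its group. Among the members this held in 1 of 10 groups, and chance alone flags about 1 in 20. The pathway probe sets were screened because they had been called, so their 3 flags cannot be set against that rate. At the second Ntrk2 probe set, C1 was highest at 9.24, against 9.03 to 9.09 in the other 4 C-group rats. Sorl1 (1394786_at) was lowest in C1 at 9.27, against 11.05 to 11.53 in the other C-group rats. The same probe set of Sorl1 was lowest in P1 at 11.20 among the P-group, against 11.32 to 11.36, a gap of 0.12 log2 units. Usf1 was lowest in C1 at 7.63, against 8.27 to 8.50 in the other C-group rats. C1 was the rat in 3 of these 4 cases.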

How the results depend on the processing

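limma called 0 of the member probe sets under all 16 alternatives. Rank products called 0 under 12 of 16, and 1 with the replicate block (Bdnf, a difference of 0.13 with an FDR of 0.0360, adjusted p = 0.818 from limma). Leaving out 1 rat at a time gave from 0 to 1 calls, with Bdnf called without C5 or P1 and the first Ntrk2 probe set without P3. The differences then ran from 0.0776 to 0.18 for Bdnf, from 0.0544 to 0.19, 0.02 to 0.07 and 0.03 to 0.14 for the Ntrk2 probe sets, and from -0.10 to 0.15 for Ntf3, which was 0.15, 0.0085 and 0.02 without C1, C2 and P3. The other settings kept the direction of all 5. The replicate numbers were not treated as pairs, since the deviations of same-numbered rats correlated at 0.28, -0.01, -0.39, 0.48 and 0.45, and 2 of 5 C-group rats matched their own number best. Over all probe sets, rank products called 620 higher and 129 lower, 912 and 338 with the block, 157 and 37 among the brighter probe sets, 9 and 0 among the variable probe sets only, 61 and 164 without C1, and 110 and 112 without C2. It called 234 higher without C4 and 323 without P5, and 789 and 82 without P1. Lower calls were 221 without C3 and 21, 49, 10 and 29 without P2 to P5. The largest difference of a constant member probe set moved to 0.0062 after centring arrays on their medians and to 0.0078 after quantile normalization.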
